A study of Mus musculus with 24 samples.

Results

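The 10 genes that mark Kupffer cells and other resident macrophages, Clec4f, Vsig4, Timd4, Cd5l, Marco, C1qa, C1qb, C1qc, Adgre1 and Fcgr1, were followed through RNA-seq libraries of mouse intrahepatic cholangiocytes, the epithelial cells that line the bile ducts inside the liver. They were taken by name: the gene identifiers of the deposited tables were matched to symbols, and each of the 10 symbols had 1 identifier among the 49315 genes listed. All 10 passed the filter on low counts in both sexes. In male dnTGFB libraries 8 of the 10 genes were lower than in WT, where 8.46% of all genes tested were, and in male dnTGFB secretin libraries all 10 were higher than in untreated dnTGFB, where 10.1% of all genes were. In female libraries 0 of the 10 passed the edgeR test in any of the 4 comparisons, as did 0.0% of the 19882 genes tested, and libraries of the same group differed widely in these genes.

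The study compared 4 groups within each sex, with 3 libraries in each of the 8 groups. The dnTGFB secretin mice carried a dominant-negative form of the TGF-β type II receptor, a model of primary biliary cholangitis, and were given secretin, a gut hormone, from 32 weeks of age for 8 weeks. The dnTGFB mice carried the same transgene and received no secretin, and the labels do not state their age. The WT secretin mice were wild type and given secretin in the same way, and the WT mice were untreated and killed at 32 weeks. Osmotic minipumps in the abdominal cavity released secretin at a daily dose of 4 µg per kg, with a second pump after 1 month, and treated mice were killed at 40 weeks. A comparison of treated with untreated WT mice therefore also spans 8 weeks of age. The labels do not name the promoter of the transgene; in the line commonly used under this name it is the Cd4 promoter, which is active in T cells. The strain is not given in the labels. In all groups the cells of 6 to 8 mice were pooled after capture on antibody-coated magnetic beads, and each pool was sequenced in triplicate. By that description a p-value measures the spread between 3 libraries and not between mice, but some libraries of a group differed by far more than counting. In 12 of the 24 libraries, those of WT secretin and of untreated dnTGFB, the genotype entry and the title contradict each other, and groups follow the titles and the design text.

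Kupffer cells are the macrophages that live in the liver sinusoids. They take up bacteria, spent red cells and dying cells from the blood, and they are maintained by CSF1 receptor signalling and by signals from neighbouring endothelial and stellate cells, among them TGF-β family ligands. Resident Kupffer cells in mice are recognised by Clec4f, Vsig4, Timd4 and Cd5l, while C1q, Adgre1 and Fcgr1 are shared with most tissue macrophages and Marco is found on a part of the Kupffer cells and on other scavenging macrophages.

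Levels are given in CPM, the counts of a gene scaled to a common library size, after TMM scaling within a sex, a scaling that corrects library totals for a few very abundant genes. Total counts ranged from 1429218 to 30203330 in male libraries and from 6483182 to 104003184 in female libraries. The 10 genes together took 0.0130% to 0.0982% of the counts of a male library and 0.0203% to 0.273% of those of a female library. The bile duct genes Krt19 and Epcam were present in every library, at 16.8 CPM or more for Krt19 and 6.87 CPM or more for Epcam. Transcripts of other cells were present too: Alb, the albumin gene of hepatocytes, stood at 333 to 15724 CPM, and Ptprc, the leukocyte antigen CD45, at 5.87 to 105 CPM.

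Several libraries stood apart from their group or went against their label. Male WT library 1 had a mitochondrial share of 42.75% against 9.73% and 9.75% in the other WT libraries. Male dnTGFB library 3 held the fewest counts and carried heart muscle and neuronal transcripts, and male dnTGFB libraries 1 and 2 had mitochondrial shares of 55.07% and 55.03%. Heart muscle transcripts summed, in libraries 1 and 2 of female dnTGFB and 2 and 3 of female WT secretin, to 55691 CPM or more, and these 4 held the Y-linked gene Ddx3y at 55.0 to 98.4 CPM. Xist, which is transcribed from an inactive X chromosome, was at 7.95 and 10.1 CPM in male dnTGFB libraries 1 and 2 and at 30.1 to 37.4 CPM in the male WT secretin libraries, against 0.166 to 1.45 CPM in the other 7 male libraries. Over all genes, the library most alike belonged to the same group for 10 of the 12 male and 6 of the 12 female libraries, by the chi-square per gene at equal depth, where counting alone gives about 1. Male dnTGFB library 3 was closest to male WT secretin library 1, at 46.8 against 78.4 for its own group, and male WT library 1 to male dnTGFB library 2, at 7.24 against 39.9. The closest match of female WT library 2 was library 1 of female dnTGFB secretin, at 1.14 against 10.48 for its own group. That of female WT secretin library 1 was library 3 of female dnTGFB secretin, at 1.45 against 62.85 for its own group. The lowest value within a group was 1.10, and no libraries were merged.

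Per kb of gene length, C1qa had the highest level of the 10 genes in all 8 groups, with means of 139 ± 7.75 CPM per kb in male dnTGFB secretin, 33.6 ± 2.31 in male dnTGFB, 136 ± 2.58 in male WT secretin and 95.3 ± 20.8 in male WT (SD, n = 3 libraries each). Fcgr1 and Timd4 were among the 3 lowest in all 8 groups, and Fcgr1 reached 2.88 ± 0.0583 CPM per kb in male dnTGFB secretin and 0.807 ± 0.396 in male dnTGFB. By this measure Marco held place 4 of 10 in both male dnTGFB groups and place 7 in both male WT groups.

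**Figure D1:**
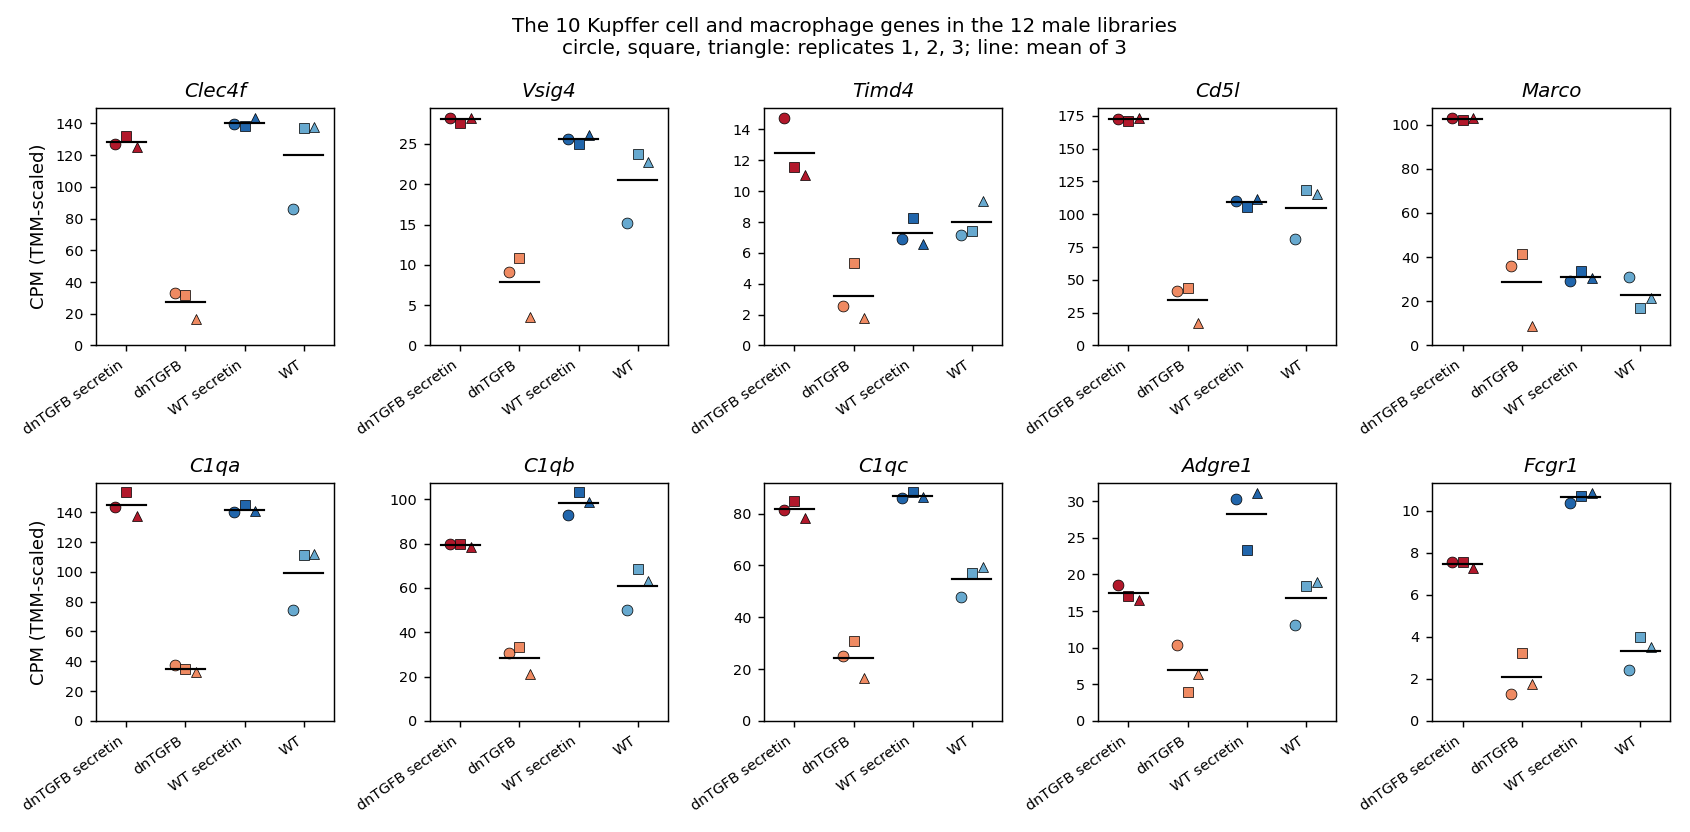
TMM-scaled CPM (vertical axes, from 0) of the 10 genes in the 12 male libraries by group, with replicates 1, 2 and 3 as circle, square and triangle and the mean of 3 as a line. The dnTGFB libraries lie lowest for Clec4f, Vsig4, Timd4, Cd5l, the 3 C1q genes and Adgre1, and Marco stands out in dnTGFB secretin, at 103, 102 and 103 CPM.

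Clec4f encodes a C-type lectin that binds galactose-containing glycans and is made in the mouse liver almost solely by Kupffer cells (ENSMUSG00000014542, chromosome 6, 83644542 to 83656187, minus strand, GRCm38). Its levels were 127, 132 and 125 CPM in male dnTGFB secretin, 33.2, 31.7 and 16.4 in dnTGFB, 139.6, 138 and 144 in WT secretin and 86.3, 137 and 138 in WT. The dnTGFB libraries lay below all other male libraries, and the dnTGFB secretin libraries lay within the range of WT. Clec4f fell in dnTGFB relative to WT by a log2 fold change of -2.12 ± 0.26 (SE, n = 3 each, edgeR adjusted p = 0.00238) and rose in dnTGFB secretin relative to dnTGFB by 2.21 ± 0.26 (edgeR adjusted p = 0.000459). In bulk RNA, fewer cells of a type and less RNA per cell cannot be told apart.

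Vsig4, a complement receptor of the immunoglobulin family with which Kupffer cells bind C3b-coated bacteria, lies on the X chromosome (ENSMUSG00000044206, chromosome X, 96247203 to 96293438, minus strand). It stood at 28.2, 27.6 and 28.3 CPM in male dnTGFB secretin, 9.11, 10.8 and 3.52 in dnTGFB, 25.6, 25 and 26.2 in WT secretin and 15.2, 23.7 and 22.7 in WT. The 4 groups did not overlap, with dnTGFB lowest and dnTGFB secretin highest. The log2 fold change was -1.27 ± 0.27 for dnTGFB over WT (edgeR adjusted p = 0.0116) and 1.72 ± 0.28 for dnTGFB secretin over dnTGFB (edgeR adjusted p = 0.00300). The call against WT ended without WT library 2 (edgeR adjusted p = 0.0520) and without WT library 3 (0.0512).

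Timd4 encodes TIM-4, the phosphatidylserine receptor with which resident macrophages hold dying cells (ENSMUSG00000055546, chromosome 11, 46810800 to 46844332, plus strand). It stood at 14.8, 11.6 and 11.1 CPM in male dnTGFB secretin, 2.54, 5.37 and 1.76 in dnTGFB, 6.89, 8.28 and 6.61 in WT secretin and 7.17, 7.44 and 9.34 in WT. All dnTGFB secretin libraries were above all WT and WT secretin libraries, which overlapped, and dnTGFB was lowest. The value in dnTGFB library 3 rests on 3 reads, for which the counting interval (Poisson, 95%) runs from 0.363 to 5.14 CPM and covers counting error only. Timd4 fell in dnTGFB relative to WT by a log2 fold change of -1.17 ± 0.32 (edgeR adjusted p = 0.0308) and rose by 1.81 ± 0.32 in dnTGFB secretin relative to dnTGFB (edgeR adjusted p = 0.00506). Without WT library 2, WT library 3 or dnTGFB library 1 the edgeR adjusted p of the decrease was 0.0753, 0.109 and 0.0788. Without dnTGFB library 2 its log2 fold change was -1.80.

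Cd5l, a secreted scavenger protein that protects macrophages from cell death (ENSMUSG00000015854, chromosome 3, 87357881 to 87371073, plus strand), stood at 173, 171 and 174 CPM in male dnTGFB secretin, 41.8, 44.1 and 17.0 in dnTGFB, 110.2, 106 and 112 in WT secretin and 80.9, 118 and 116 in WT. The dnTGFB secretin libraries lay above all other male libraries and the dnTGFB libraries below them. The log2 fold change was -1.58 ± 0.29 for dnTGFB over WT (edgeR adjusted p = 0.00610) and 2.29 ± 0.29 for dnTGFB secretin over dnTGFB (edgeR adjusted p = 0.000819).

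Marco encodes a class A scavenger receptor that binds bacteria and particles (ENSMUSG00000026390, chromosome 1, 120474538 to 120505024, minus strand). It followed another order than the genes above, at 103, 102 and 103 CPM in male dnTGFB secretin, 36.1, 41.4 and 8.80 in dnTGFB, 29.1, 33.6 and 30.5 in WT secretin and 30.8, 17.0 and 21.4 in WT. All dnTGFB secretin libraries lay above all other male libraries, and the other 3 groups overlapped. Marco was the only member with an edgeR call for dnTGFB secretin over WT secretin, with a log2 fold change of 1.72 ± 0.39 (adjusted p = 0.0154), and it rose by 1.77 ± 0.39 relative to dnTGFB (edgeR adjusted p = 0.0137). The call against WT secretin ended when any 1 of the 6 libraries compared was left out, with edgeR adjusted p-values of 0.0563 to 0.0730 and log2 fold changes of 1.68 to 1.79. For dnTGFB over WT the log2 fold change was 0.39 ± 0.38 (edgeR adjusted p = 0.499), -0.21 with library totals in place of TMM, and 0.75 without dnTGFB library 3 (edgeR adjusted p = 0.0132).

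C1qa, C1qb and C1qc encode the 3 chains of C1q, the molecule that recognises bound antibody and starts the classical complement pathway, and tissue macrophages are its main source. The genes lie beside each other on the minus strand of chromosome 4 (C1qa, ENSMUSG00000036887, 136895917 to 136898803; C1qc, ENSMUSG00000036896, 136889804 to 136893065; C1qb, ENSMUSG00000036905, 136880129 to 136886187). C1qa stood at 144, 154 and 138 CPM in male dnTGFB secretin, 37.6, 34.5 and 32.9 in dnTGFB, 139.9, 145 and 141 in WT secretin and 74.2, 111 and 112 in WT. C1qb stood at 80.0, 79.9 and 78.5 CPM in male dnTGFB secretin, 30.4, 33.2 and 21.1 in dnTGFB, 93.1, 103 and 99.0 in WT secretin and 50.2, 68.4 and 63.3 in WT. C1qc stood at 81.5, 84.9 and 78.5 CPM in male dnTGFB secretin, 25, 30.9 and 16.4 in dnTGFB, 85.9, 88.2 and 86.3 in WT secretin and 47.8, 57.1 and 59.3 in WT. For all 3 chains dnTGFB was lowest and WT next, with no overlap between them, and both secretin groups were above WT.

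The 3 chains fell in dnTGFB relative to WT, by log2 fold changes of -1.5 ± 0.17 for C1qa, -1.08 ± 0.18 for C1qb and -1.15 ± 0.19 for C1qc (edgeR adjusted p = 0.00209, 0.00478 and 0.00486). They rose in dnTGFB secretin relative to dnTGFB, by 2.05 ± 0.18, 1.47 ± 0.18 and 1.72 ± 0.19 in the same order of genes (edgeR adjusted p = 8.94e-05, 0.000594 and 0.000365). For WT secretin over WT the log2 fold changes were 0.52 ± 0.17, 0.70 ± 0.17 and 0.67 ± 0.18, of which that of C1qb passed (edgeR adjusted p = 0.101, 0.0357 and 0.0587). The C1qb call ended when any 1 of the 6 libraries was left out, with edgeR adjusted p-values of 0.0855 to 0.151. DESeq2 called all 3 chains higher in this comparison.

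Adgre1 encodes F4/80, an adhesion receptor long used to recognise mouse macrophages (ENSMUSG00000004730, chromosome 17, 57358686 to 57483529, plus strand). It stood at 18.6, 17.1 and 16.5 CPM in male dnTGFB secretin, 10.4, 3.98 and 6.45 in dnTGFB, 30.3, 23.3 and 31.1 in WT secretin and 13.1, 18.4 and 19.0 in WT. WT secretin was highest, dnTGFB secretin and WT overlapped, and dnTGFB was lowest. The log2 fold change was -1.27 ± 0.31 for dnTGFB over WT (edgeR adjusted p = 0.0180) and 1.32 ± 0.31 for dnTGFB secretin over dnTGFB (edgeR adjusted p = 0.0162). The decrease was not called without WT library 2 or without WT library 3 (edgeR adjusted p = 0.0634 and 0.0671), nor the increase without dnTGFB secretin library 1 or 2 (0.0586 and 0.0526).

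Fcgr1 encodes CD64, the high-affinity receptor for IgG (ENSMUSG00000015947, chromosome 3, 96282909 to 96293969, minus strand). Its levels were 7.55, 7.55 and 7.29 CPM in male dnTGFB secretin, 1.27, 3.24 and 1.76 in dnTGFB, 10.4, 10.7 and 10.9 in WT secretin and 2.44, 4.00 and 3.50 in WT. The libraries of both secretin groups lay above all untreated libraries of both genotypes, which overlapped. Fcgr1 rose in both genotypes, by 1.68 ± 0.29 for WT secretin over WT (edgeR adjusted p = 0.00852) and by 1.76 ± 0.33 for dnTGFB secretin over dnTGFB (edgeR adjusted p = 0.00641). For dnTGFB over WT its log2 fold change was -0.59 ± 0.33 (edgeR adjusted p = 0.224), and -1.26 without dnTGFB library 2 (edgeR adjusted p = 0.0214).

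**Figure D2:**
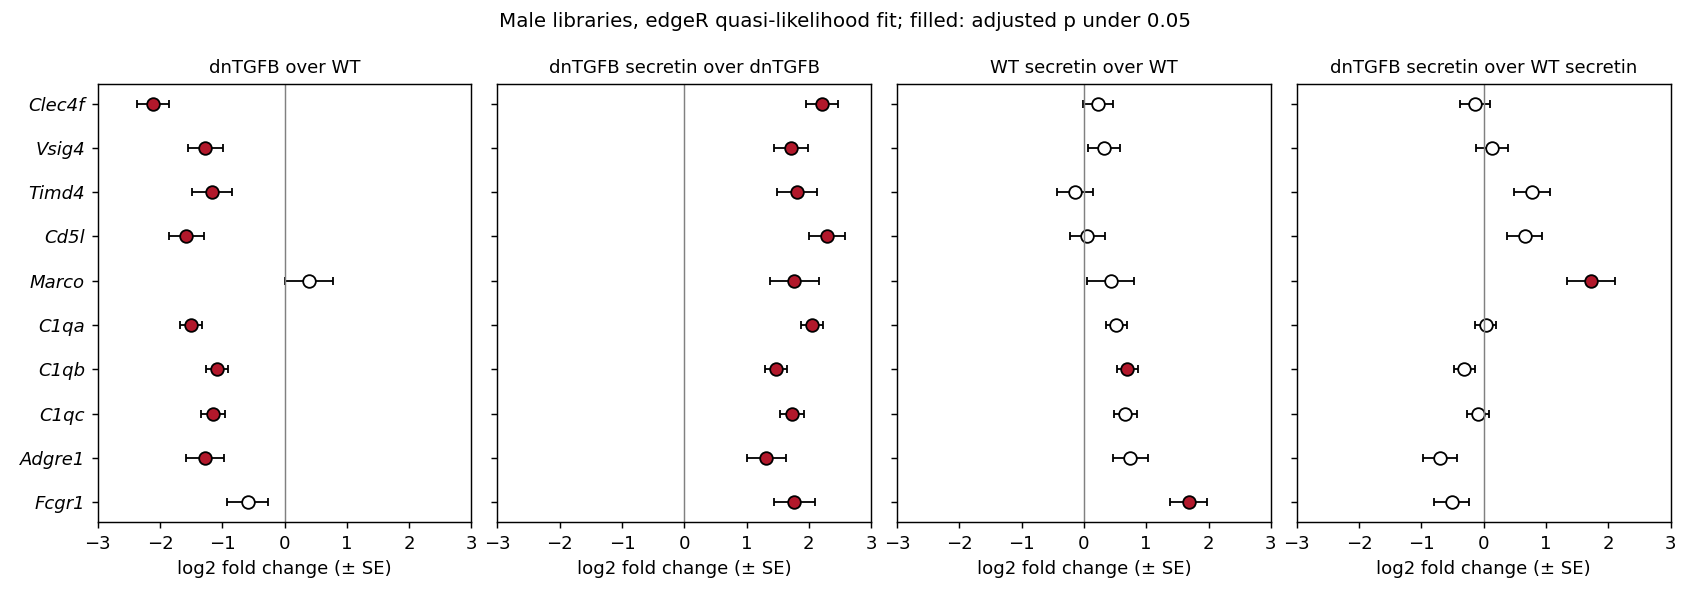
Log2 fold changes with SE bars (horizontal axes) of the 10 genes in the 4 male comparisons, from the edgeR fit of the 12 male libraries, with filled points for an adjusted p under 0.05. In dnTGFB over WT 8 genes are filled and negative, and in dnTGFB secretin over dnTGFB all 10 are filled and positive.

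Read together by comparison, male dnTGFB over WT had 8 members called lower and 0 called higher, where 8.46% of the 18777 genes tested were called lower and 8.55% higher. Marco and Fcgr1 were the members without a call. The median log2 fold change of the 10 members was -1.22, against 0.01 for all genes tested. With library totals in place of TMM the medians were -1.84 for the members and -0.44 for all genes. The same count of 8 members was then lower, against 22.5% of genes. Without male WT library 1 and male dnTGFB library 3, an alternative added after the data were seen, 8 members were lower and Marco was higher, with a log2 fold change of 1.01 (edgeR adjusted p = 3.02e-08), where 25.1% of genes were called lower and 22.3% higher. The chi-square per gene was 1.18 between WT libraries 2 and 3 and 1.40 between dnTGFB libraries 1 and 2. Small p-values in that fit thus measure a spread near that of counting and not between mice. Mitochondrial shares were then 9.73% and 9.75% in WT and 55.07% and 55.03% in dnTGFB, and the part of this difference was not tested. Leaving out WT library 2 or WT library 3 brought the lower members to 5 each, against 3.01% and 2.8% of genes lower. When only the 6 libraries of the comparison were fitted, no gene at all passed, and the members' median was -1.17.

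Male dnTGFB secretin over dnTGFB had 10 members called higher and 0 lower, against 10.1% of genes higher and 12.4% lower. The medians were 1.77 for the members and -0.05 for all genes. With library totals in place of TMM all 10 were again higher, against 35.7% of genes higher and 4.46% lower. The members' median was then 2.74, so the share of all genes beside the members depended on the scaling. Without both libraries that stand apart all 10 were still called higher, against 23.1% of genes, with a median of 1.58. Fitted on the 6 libraries alone, 5 members passed, Clec4f, Cd5l, C1qa, C1qb and C1qc, against 1.71% of genes higher, and the members' median was 1.78. This comparison and that of dnTGFB over WT use the same dnTGFB libraries. Their mitochondrial shares were 5.31% to 5.66% in dnTGFB secretin and 11.44% to 55.07% in dnTGFB, and the part of this difference in the results was not tested.

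Male WT secretin over WT had 2 members called higher, C1qb and Fcgr1, and 0 lower, against 3.55% of genes higher and 2.67% lower. The medians were 0.47 for the members and -0.00083 for all genes. Clec4f, Vsig4, Timd4 and Cd5l had log2 fold changes of 0.22 ± 0.24, 0.32 ± 0.26, -0.14 ± 0.29 and 0.06 ± 0.28, none of them called. Without both libraries that stand apart 6 members were higher, Marco, the 3 C1q chains, Adgre1 and Fcgr1, against 19.9% of genes, and the log2 fold changes of Clec4f and Cd5l were 0.03 and -0.10.

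Male dnTGFB secretin over WT secretin had 1 member called higher, Marco, and 0 lower, against 5.75% of genes higher and 7.19% lower, with medians of -0.03 for the members and -0.01 for all genes. Neither group holds male WT library 1 or male dnTGFB library 3, the libraries that stand apart. The WT secretin libraries carried Xist at 30.1 to 37.4 CPM, however, and their heart muscle genes summed to 28.1, 33.1 and 737 CPM. When both libraries that stand apart were left out of the fit, 3 members were higher, Timd4, Cd5l and Marco, against 25.1% of genes. In the same fit 4 were lower, Clec4f, C1qb, Adgre1 and Fcgr1, against 25.7% of genes. The log2 fold changes were then 0.78, 0.66 and 1.73 for the higher members and -0.13, -0.31, -0.70 and -0.51 for the lower ones.

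Whether the secretin difference itself differed between the male genotypes was tested by the interaction, the log2 fold change in dnTGFB minus that in WT. The interaction also equals the log2 fold change of dnTGFB secretin over WT secretin minus that of dnTGFB over WT. The interaction therefore uses the same dnTGFB libraries and is not independent of the low levels in dnTGFB given above. It was positive and called for 6 members, Clec4f, Vsig4, Timd4, Cd5l, C1qa and C1qc, against 8.1% of genes called higher and 7.51% lower, and 0 members were called lower. The largest was that of Cd5l, at 2.23 ± 0.40 (edgeR adjusted p = 0.00602). For Marco, C1qb, Adgre1 and Fcgr1 it was 1.34 ± 0.54, 0.77 ± 0.24, 0.57 ± 0.41 and 0.08 ± 0.43 (edgeR adjusted p = 0.108, 0.0544, 0.347 and 0.963). Without both libraries that stand apart it was called for 8 members, Marco and C1qb added, against 25.1% of genes higher. The Vsig4 and C1qc calls each ended in 8 of 12 fits that left out 1 library, with edgeR adjusted p-values of 0.0727 to 0.0833 for Vsig4 and 0.0598 to 0.0707 for C1qc, those without WT library 2 or 3 or any 1 library of either secretin group. The Timd4 call ended without dnTGFB secretin library 1 (0.0524). C1qb was called without WT library 1, dnTGFB library 2 or dnTGFB library 3, Marco without dnTGFB library 3 and Adgre1 without dnTGFB library 1, with edgeR adjusted p-values of 0.00317 to 0.0388 in these fits.

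The letters upstream of these genes are shown for members that moved alike and apart: Clec4f, C1qb and C1qc, which were low together in dnTGFB, and Marco. RefSeq promoter entries on GRCm38.p6 matched 8 of the 10 members, those of Clec4f, Vsig4, Timd4, Cd5l, Marco, C1qb, C1qc and Fcgr1. They run from 250 bases before to 50 after the start used in the entry. For Clec4f, C1qb and C1qc that start differs from the gene start in the coordinates given above. Written 5′ to 3′ on the gene's own strand, the capitals mark matches on either strand to a core of the PU.1 motif, GAGGAAG, or to the M-box TCANGTG of MITF and TFE factors. The windows are chr6:83656067-83656366, chr4:136886151-136886450, chr4:136892865-136893164 and chr1:120504975-120505274, all on the minus strand.
Clec4f: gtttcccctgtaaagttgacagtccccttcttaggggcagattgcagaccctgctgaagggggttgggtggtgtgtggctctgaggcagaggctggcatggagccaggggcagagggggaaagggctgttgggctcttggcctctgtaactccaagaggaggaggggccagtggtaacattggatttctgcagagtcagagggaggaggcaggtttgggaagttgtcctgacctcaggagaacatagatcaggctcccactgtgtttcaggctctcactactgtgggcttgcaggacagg
C1qb: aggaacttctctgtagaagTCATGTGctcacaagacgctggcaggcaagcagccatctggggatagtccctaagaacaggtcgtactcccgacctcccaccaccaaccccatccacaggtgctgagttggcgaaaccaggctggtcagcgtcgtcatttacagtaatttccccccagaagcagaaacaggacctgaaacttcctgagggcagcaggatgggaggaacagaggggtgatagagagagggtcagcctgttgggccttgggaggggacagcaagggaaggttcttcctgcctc
C1qc: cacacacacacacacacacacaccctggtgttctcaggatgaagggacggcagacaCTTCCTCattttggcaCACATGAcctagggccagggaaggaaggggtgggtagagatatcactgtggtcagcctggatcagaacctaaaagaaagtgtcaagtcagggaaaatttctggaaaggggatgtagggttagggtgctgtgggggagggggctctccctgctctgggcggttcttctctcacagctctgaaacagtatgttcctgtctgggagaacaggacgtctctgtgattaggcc
Marco: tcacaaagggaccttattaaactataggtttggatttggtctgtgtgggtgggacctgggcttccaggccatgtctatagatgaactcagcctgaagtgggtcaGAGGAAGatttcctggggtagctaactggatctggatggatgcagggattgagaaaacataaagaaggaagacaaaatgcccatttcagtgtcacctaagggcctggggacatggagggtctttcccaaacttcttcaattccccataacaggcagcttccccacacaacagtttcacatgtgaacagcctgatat

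PU.1, encoded by Spi1, is the lineage factor of macrophages. Its core was found on 1 strand or the other in 4 of the 8 promoters, those of Marco, Cd5l, Fcgr1 and C1qc, and in 13.4% of the 32544 promoters in the table. The M-box was found in 2, C1qb and C1qc, and in 14.3% of all promoters, and the AP-1 letters TGANTCA in none of the 8 and in 7.79% of all promoters. In C1qc the PU.1 core begins at position 57 and the M-box at position 73 of the 300 bases, with no overlap. These are matches of letters and not measured binding.

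Marco and Clec4f did not keep a fixed proportion. The ratio of Marco to Clec4f reads within a library, which does not depend on scaling, was 0.811, 0.772 and 0.820 in male dnTGFB secretin, 1.09, 1.31 and 0.536 in male dnTGFB, 0.209, 0.243 and 0.212 in male WT secretin and 0.357, 0.124 and 0.155 in male WT. All 6 libraries of the dnTGFB genotype were above all 6 WT ones, with or without secretin. The lowest of the dnTGFB values, 0.536 in male dnTGFB library 3, rests on 15 Marco and 28 Clec4f reads. In females it was 0.166, 0.833 and 0.680 in dnTGFB secretin, 4.05, 4.40 and 3.33 in dnTGFB, 0.644, 0.666 and 0.603 in WT secretin and 2.27, 0.145 and 0.472 in WT. The female dnTGFB libraries were highest, and those of dnTGFB secretin and of WT overlapped. Over the 12 libraries of a sex this ratio varied 10.6-fold in males and 30.4-fold in females.

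The ratios of other pairs spanned narrower ranges. Cd5l to Clec4f ran from 0.765 to 1.39 in males and from 0.829 to 1.94 in females. C1qc to C1qa ran from 0.50 to 0.895 in males and from 0.578 to 0.709 in females, the narrowest of the 12 ratios examined in females. C1qa to Clec4f ran from 0.811 to 2.00 in males and from 0.879 to 6.61 in females. The highest male value was that of dnTGFB library 3, with 56 C1qa and 28 Clec4f reads. The lowest male value of C1qc to C1qa came from the same library, with 28 and 56 reads. For C1qa to Clec4f the 5 highest female values were those of the 3 dnTGFB libraries and of WT secretin libraries 2 and 3.

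**Figure D3:**
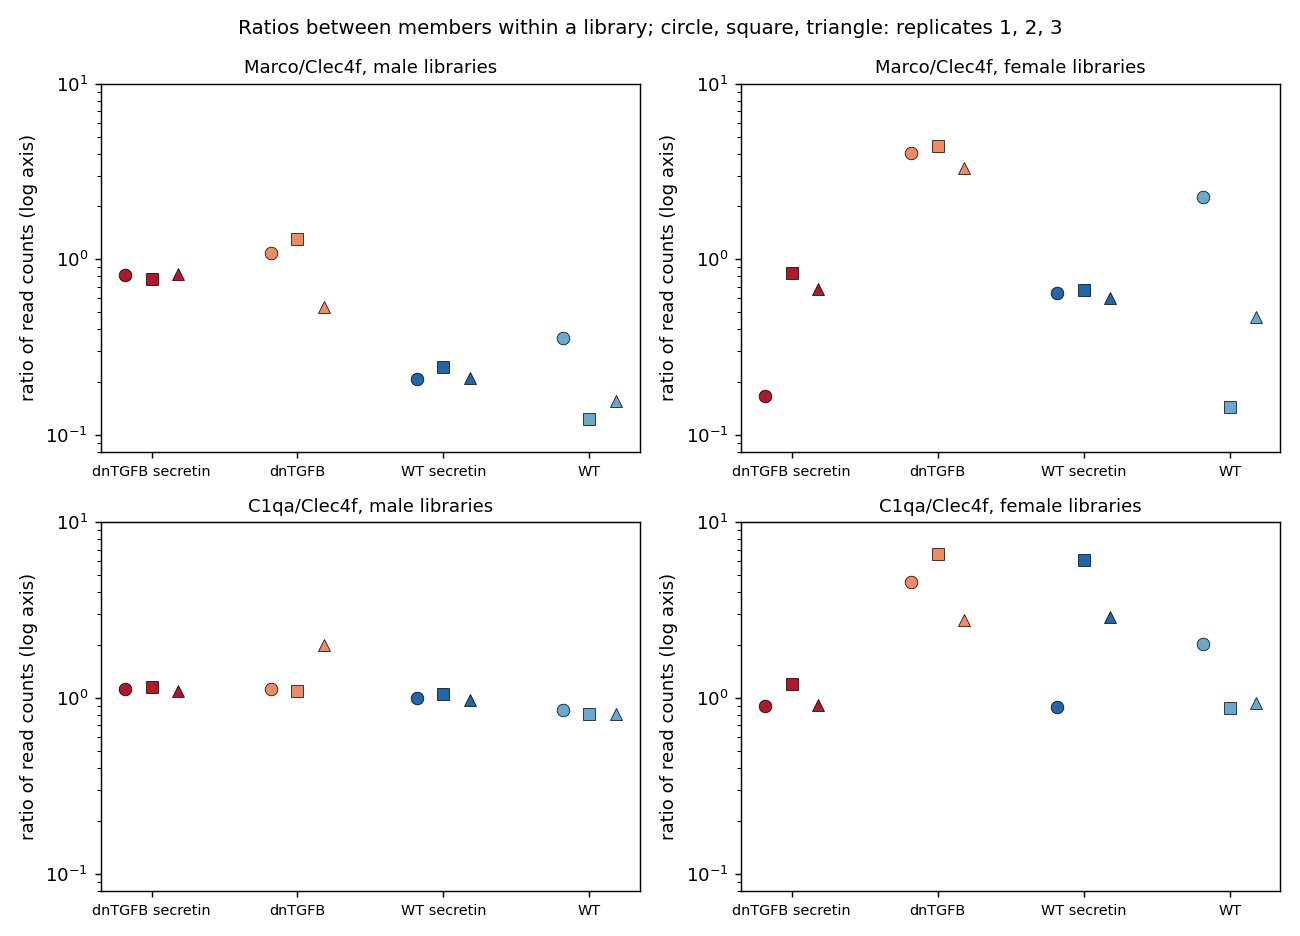
Ratios of Marco to Clec4f reads and of C1qa to Clec4f reads (log axes) in each library, male at left and female at right, with replicates 1, 2 and 3 as circle, square and triangle. In males Marco to Clec4f is 0.772 to 0.820 in dnTGFB secretin and 0.536 to 1.31 in dnTGFB, above all values of WT secretin and WT, and C1qa to Clec4f ranges from 0.811 to 2.00.

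Female libraries of one group differed widely in the members. Clec4f stood at 126, 92.2 and 183 CPM in female dnTGFB secretin, 37.3, 22.9 and 155 in dnTGFB, 214, 16.3 and 32.6 in WT secretin and 169, 124 and 124 in WT. Marco stood at 20.9, 76.8 and 125 CPM in female dnTGFB secretin, 151, 101 and 517 in dnTGFB, 138, 10.9 and 19.7 in WT secretin and 384, 17.9 and 58.3 in WT. C1qa stood at 114, 111 and 168 CPM in female dnTGFB secretin, 170.1, 152 and 430.3 in dnTGFB, 189.6, 100.1 and 95 in WT secretin and 344, 109 and 115 in WT. Groups next to each other in the order of means overlapped for all 10 members. The highest Marco and C1qa levels were those of dnTGFB library 3, which by the chi-square over all genes was nearest to WT library 1, and the highest Clec4f level was that of WT secretin library 1.

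The other members also spread widely in females. Vsig4 ranged from 8.49 to 78.1 CPM over the 12 libraries, with a median of 40.2, Timd4 from 4.55 to 26.6 with a median of 10.2, and Cd5l from 13.6 to 268 with a median of 157. C1qb ranged from 63.8 to 352 CPM, C1qc from 63.3 to 277, Adgre1 from 14.8 to 147 and Fcgr1 from 4.00 to 44.2. WT secretin libraries 2 and 3, which carried heart muscle transcripts, held the 2 lowest values of Vsig4 and Timd4, and dnTGFB library 3 held the highest values of Timd4, Cd5l, Adgre1 and Fcgr1.

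**Figure D4:**
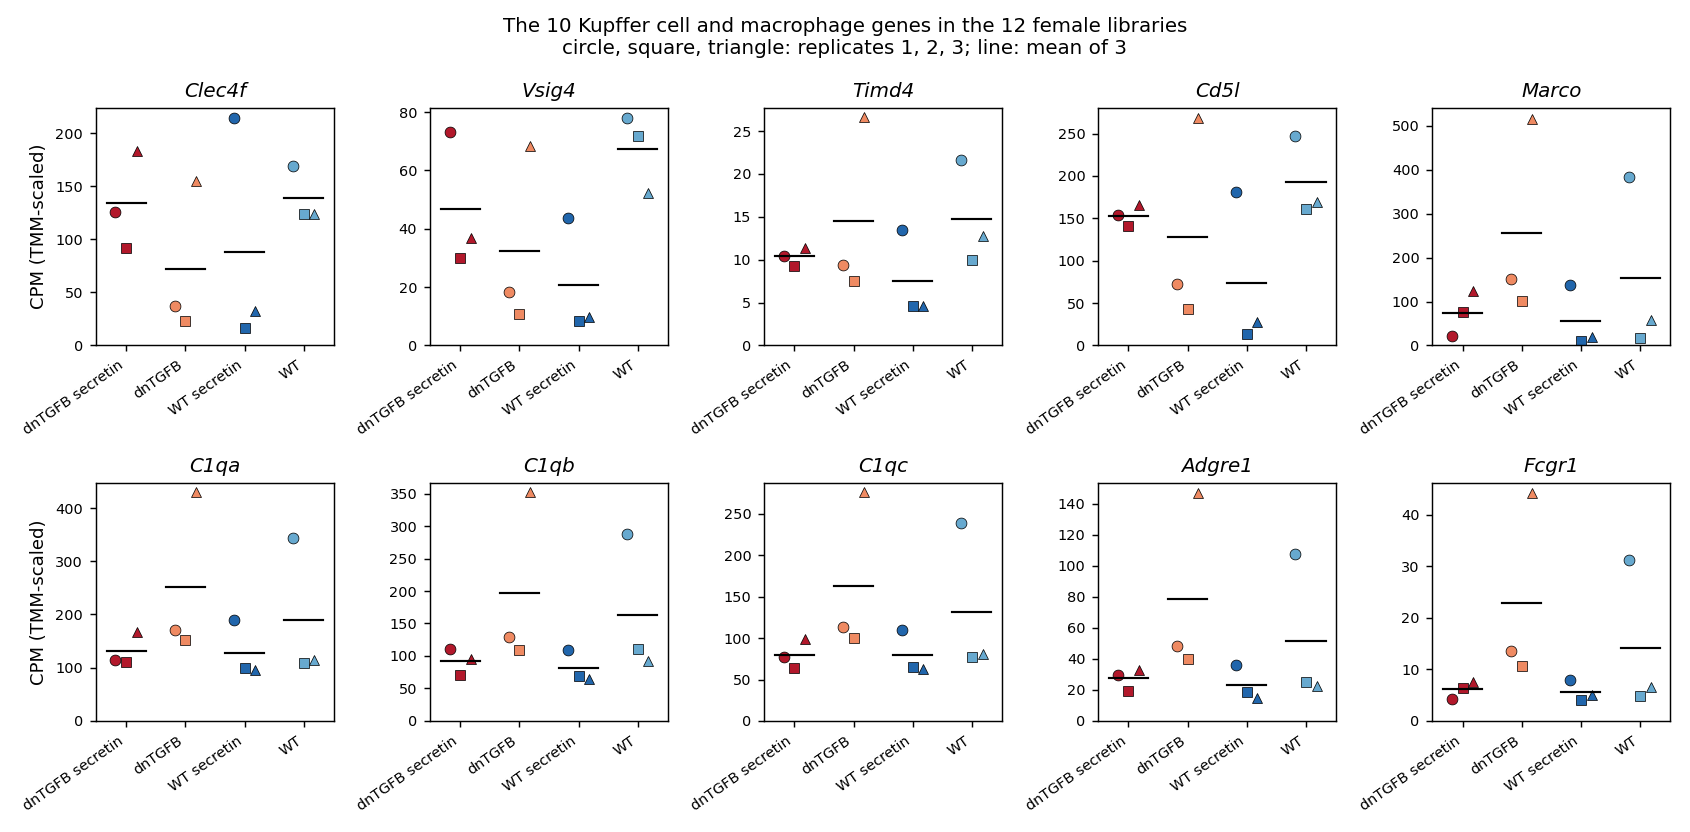
TMM-scaled CPM (vertical axes, from 0) of the 10 genes in the 12 female libraries by group, with replicates 1, 2 and 3 as circle, square and triangle and the mean of 3 as a line. In dnTGFB and in WT 1 library lies above the other 2 for C1qa, at 170.1, 152 and 430.3 CPM in the dnTGFB group against 344, 109 and 115 CPM in the WT group.

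With this spread, edgeR called 0 members in female dnTGFB over WT, dnTGFB secretin over dnTGFB, WT secretin over WT and dnTGFB secretin over WT secretin, where 0.0% of the 19882 genes tested were called in each. At an unadjusted p under 0.05, where the share of all genes was not counted, 1 member passed in these 4 comparisons. It was Fcgr1, lower in dnTGFB secretin than in dnTGFB, and DESeq2 called 0 members. The female interaction had 0 members called by edgeR, against 18.0% of genes. It had 0 members at an unadjusted p under 0.05 and 0 by DESeq2. Shares of all genes are not given for this unadjusted count or for the female DESeq2 counts. These counts alone do not set the members apart. Without the 4 libraries rich in heart muscle transcripts, an alternative added after the data were seen, 0 members and 0 genes were called in any of these tests. That leaves 1 library each in dnTGFB and WT secretin, whose spread is then assumed to be that of the other groups. Without WT secretin library 1, which leaves both heart-rich libraries in that group, 3 members were lower in WT secretin than in WT, against 8.76% of genes. In the same fit 3 were higher in dnTGFB secretin than in WT secretin, against 7.97% of genes, and 3 had a positive interaction, against 15.5%. Without dnTGFB library 3, 1 member had a positive interaction, against 10.4% of genes.

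The difference between the sexes was tested as the male minus the female log2 fold change in 1 fit of all 24 libraries. For dnTGFB secretin over dnTGFB it was called for 6 members, all higher in males, against 2.43% of genes called higher. These were Timd4, C1qa, C1qb, C1qc, Adgre1 and Fcgr1. Female dnTGFB libraries 1 and 2, rich in heart muscle transcripts and with Ddx3y at 55.0 and 80.6 CPM, enter this contrast. Female dnTGFB secretin libraries 1 and 3 enter it too. By the chi-square over all genes library 1 was nearest to female WT library 2, at 1.14 against 28.79 for its own group. Library 3 was nearest to female WT secretin library 1, at 1.45 against 3.95. No fit of the sex difference left any of these libraries out, so their part in these calls was not tested. For dnTGFB over WT edgeR called 0 members, against 6.86% of genes. At an unadjusted p under 0.05, 4 members passed as lower, where the share of all genes was not counted. DESeq2 called 1 lower, against 785 of 37530 genes. For WT secretin over WT edgeR called 0 members, against 0.0% of genes. At an unadjusted p under 0.05, 5 members passed as higher, again without a count over all genes. DESeq2 called 2 higher, against 666 of 37530 genes. With library totals in place of TMM 0 of the 6 calls remained, where 1 of 20222 genes was called higher, and the members' median difference was 3.26, against 2.71 with TMM.

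Genes that shared the pattern of a member over the 24 libraries were named by Spearman's rho among 12011 protein-coding genes with a mean of at least 5 CPM, as a description of libraries that share cell content and scaling. Nearest to Timd4 were the member Cd5l (rho 0.967), Ctsb, which encodes cathepsin B (0.940), Aldh3b1 (0.932), Npc2, a lysosomal cholesterol carrier (0.923), and Casp6 (0.921). Nearest to C1qa were the member C1qc (0.975), the lectin genes Siglece (0.966) and Clec12a (0.950), Aif1 (0.944) and Csf1r (0.940). Nearest to Marco were the formyl peptide receptor genes Fpr1 (0.947) and Fpr2 (0.924), the IgG receptor gene Fcgr4 (0.922), the C5a receptor gene C5ar1 (0.917) and Ly6c2 (0.903). In the male libraries alone Fpr1 and Fpr2 had a mean under 5 CPM and no rho was computed for them. There rho with Marco was 0.895 for Fcgr4, 0.951 for C5ar1 and 0.888 for Ly6c2. Nearest to Clec4f were Proser2 (0.948), M6pr (0.946), Aif1 (0.941), Spsb2 (0.938) and Cbl (0.938). No member was among the nearest genes of Marco or of Clec4f.

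Other genes of Kupffer cells and macrophages, from lists chosen with earlier results of these data known, were counted in the same male tests. Of 12 further Kupffer cell genes, 5 were lower and 1 higher in dnTGFB than in WT, with a list median of -0.34: Cd207, a lectin, had a log2 fold change of -2.04 ± 0.50, Clec1b, the receptor for podoplanin, of -1.59 ± 0.31, and the potassium channel gene Kcna2 of 1.83 ± 0.51 (edgeR adjusted p = 0.0190, 0.00773 and 0.0323). Relative to dnTGFB, 4 of the 12 were higher and 1 lower in dnTGFB secretin, with Clec1b at 1.24 ± 0.31, Cd207 at 1.66 ± 0.50 and Kcna2 at -1.65 ± 0.51 (edgeR adjusted p = 0.0199, 0.0366 and 0.0389). In WT secretin over WT 2 were higher, Cd207 at 1.5 ± 0.39 and Cd163, the haemoglobin scavenger receptor, at 0.92 ± 0.17 (edgeR adjusted p = 0.0455 and 0.0108), and in dnTGFB secretin over WT secretin these 2 were lower. Id3, the most abundant gene of the list, was called in none of the 4.

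Of 15 general macrophage genes, 3 were lower in dnTGFB than in WT and 4 higher in dnTGFB secretin than in dnTGFB, with list medians of -0.61 and 0.81. Csf1r, the receptor for CSF1, had log2 fold changes of -0.73 ± 0.16 and 1.26 ± 0.16, Aif1 of -1.18 ± 0.21 and 1.75 ± 0.22, and Ctss, cathepsin S, of -1.19 ± 0.19 and 1.87 ± 0.19 (edgeR adjusted p of 0.0129 or less for each). In WT secretin over WT 4 were higher, among them Lyz2, lysozyme, at 2.00 ± 0.18, Mpeg1 at 1.62 ± 0.38 and Csf1r at 1.41 ± 0.16 (edgeR adjusted p = 0.000301, 0.0297 and 0.00102). Relative to WT secretin, 3 were lower in dnTGFB secretin, Lyz2 at -1.95 ± 0.18, Tyrobp at -0.98 ± 0.28 and Csf1r at -0.88 ± 0.16 (edgeR adjusted p = 0.000133, 0.0437 and 0.00529). Maf, the most abundant gene of the list, was called in none of the 4.

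Monocytes can enter the liver from the blood, and lipid-associated macrophages carry Trem2 and Gpnmb. Of 8 monocyte genes 3 were higher in WT secretin than in WT, Ccr2 at 3.36 ± 0.34, Cx3cr1 at 2.87 ± 0.33 and Itgam at 2.03 ± 0.22 (edgeR adjusted p = 0.000490, 0.00102 and 0.000802), and 5 were lower in dnTGFB secretin than in WT secretin. Of 7 lipid-associated macrophage genes 3 were higher in WT secretin than in WT, Gpnmb at 3.17 ± 0.51, Mmp12 at 2.72 ± 0.41 and Trem2 at 2.22 ± 0.22 (edgeR adjusted p = 0.00580, 0.00424 and 0.000446), and the same 3 were lower in dnTGFB secretin than in WT secretin. In dnTGFB over WT 1 lipid-associated macrophage gene was lower, Cd9. Between dnTGFB secretin and dnTGFB the counts were 1 higher and 1 lower for monocyte genes and 3 higher and 1 lower for lipid-associated macrophage genes.

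Other genes of complement and of IgG binding were counted likewise. Of 11 other genes of the complement system, 1 was called in dnTGFB over WT, Cfp, which encodes properdin, at -1.0 ± 0.22 (edgeR adjusted p = 0.0123). In dnTGFB secretin over dnTGFB 1 was called, again Cfp, at 1.30 ± 0.22 (edgeR adjusted p = 0.00393). C3, the most abundant of them and a product of hepatocytes, had log2 fold changes of 1.38 ± 0.84 and -1.48 ± 0.84 in these comparisons (edgeR adjusted p = 0.266 and 0.217). C3ar1, the C3a receptor gene, was the 1 called in WT secretin over WT, at 1.28 ± 0.33 (edgeR adjusted p = 0.0454), and none was called in dnTGFB secretin over WT secretin. Of the 4 genes that encode other IgG receptors or their signalling chain, 3 rose in dnTGFB secretin relative to dnTGFB: Fcgr4 at 1.76 ± 0.25, Fcgr3 at 1.41 ± 0.19 and Fcer1g at 1.32 ± 0.31 (edgeR adjusted p = 0.00156, 0.00109 and 0.0175). In the other comparisons 1 of the 4 was lower in dnTGFB than in WT, Fcgr4 at -0.81 ± 0.25, 1 was higher in WT secretin than in WT, Fcgr3 at 1.32 ± 0.18, and 0 were called in dnTGFB secretin over WT secretin (edgeR adjusted p = 0.0482 and 0.00232). Of 3 growth factors and chemokines tested, Il34, a ligand of the CSF1 receptor, was higher in dnTGFB than in WT at 0.89 ± 0.26, and Ccl2 was higher in dnTGFB secretin than in WT secretin at 2.19 ± 0.59 (edgeR adjusted p = 0.0371 and 0.0335).

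Markers of other cells moved in the same comparisons as the 10 genes. In male libraries the members summed to 759 to 788 CPM in dnTGFB secretin, 126 to 239 in dnTGFB, 671 to 687 in WT secretin and 408 to 564 in WT. The 12 bile duct genes summed to 5004 to 5101, 621 to 945, 2445 to 2489 and 2048 to 3259 CPM in the same order of groups, and were thus lowest in dnTGFB too. In dnTGFB over WT 9 of them were lower, and in dnTGFB secretin over dnTGFB 11 were higher. The 8 genes of sinusoidal endothelium summed to 3966 to 4039.5, 654 to 3817, 3244 to 3371 and 5736 to 7499 CPM, with 2 lower in dnTGFB than in WT and 0 called in dnTGFB secretin over dnTGFB. The 12 hepatocyte genes summed to 3467 to 3506, 3188 to 23915, 13803 to 14578 and 2869 to 14238 CPM, with 0 called in dnTGFB over WT and 6 lower in dnTGFB secretin than in dnTGFB. The part of these cells in the members' changes was not tested.

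**Figure D5:**
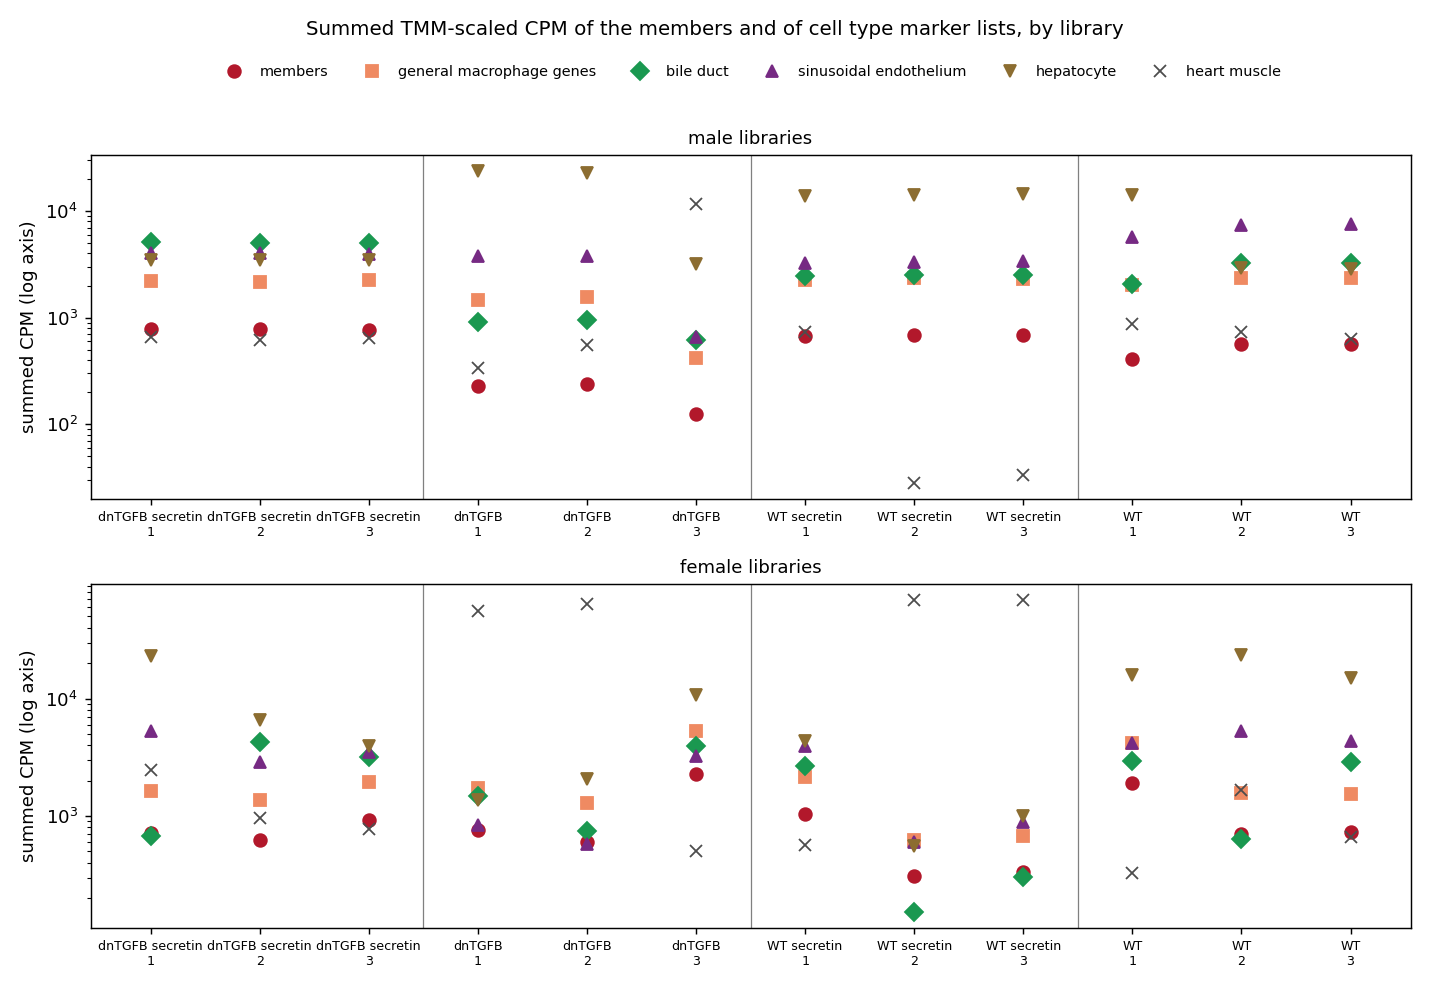
Summed TMM-scaled CPM (log axes) of the 10 members and of 5 marker lists in each library, male above and female below, with vertical lines between groups. In males the members and the bile duct genes are lowest in dnTGFB, and in females heart muscle genes reach 69426 CPM in WT secretin.

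Of the remaining lists, B cell genes (6) and platelet genes (6) were all lower in male dnTGFB than in WT, all 6 neuronal genes and 2 of 5 mesothelial genes were higher, and 0 of 8 heart muscle, 0 of 8 neutrophil and 0 of 5 peritoneal macrophage genes were called. T cell, dendritic cell and leukocyte genes had 1 lower each, of 7, 6 and 3. In dnTGFB secretin over dnTGFB all 6 neuronal genes were lower, and called as higher and lower were 1 and 2 of 6 B cell genes, 0 and 1 of 6 platelet genes, 1 and 0 of 6 dendritic cell genes, 0 and 1 of 7 T cell genes, 0 and 1 of 3 leukocyte genes, 2 and 0 of 5 peritoneal macrophage genes, and 0 of the heart muscle, neutrophil and mesothelial genes. Ptprc had log2 fold changes of -0.75 ± 0.44 in dnTGFB over WT and -0.31 ± 0.44 in dnTGFB secretin over dnTGFB (edgeR adjusted p = 0.252 and 0.643), called in neither. In WT secretin over WT the counts of higher and lower genes were 0 and 5 for B cells, 0 and 6 for platelets, 4 and 0 for dendritic cells, 4 and 0 for mesothelium, 1 and 0 for T cells and 1 and 1 for bile duct. In dnTGFB secretin over WT secretin they were 0 and 5 for B cells, 1 and 0 for platelets, 0 and 4 for dendritic cells, 0 and 4 for mesothelium, 0 and 2 for T cells, 0 and 2 for leukocytes, 1 and 0 for peritoneal macrophages, 7 and 1 for bile duct and 0 and 1 for hepatocytes. The other lists of other cell types had 0 in these 2 comparisons.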

How the data were processed

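Poly(A) RNA-seq libraries were made from 500 ng of total RNA each, per the labels' protocols. The deposited values are whole-number read counts per gene made by the authors; no source used here names the aligner or says how reads were counted or whether strand was used. Symbols and GRCm38 coordinates came from GENCODE M21, matched by identifier, for 49056 of the 49315 genes.

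Counts were tested within each sex on 12 libraries with edgeR 4.0.16 (R 4.3.3, limma 3.58.1) after filterByExpr and TMM scaling, by the robust quasi-likelihood F test with 1 mean per group and Benjamini-Hochberg adjustment over all genes tested, with calls at 0.05. The SE was taken as the absolute log2 fold change over the root of F. Sex differences came from 1 fit of 24 libraries. Alternatives were library totals, DESeq2 size factors, no filter, DESeq2 1.42.0, a replicate block, fits of 6 libraries and leaving out libraries. Tables were handled in Python 3.11.15 with numpy 2.4.6, pandas 2.3.3 and scipy 1.17.1. The fits were tested on simulated data.

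The members and lists were chosen with earlier results of these data known. From each list, up to 3 called genes with the largest change in a comparison and the most abundant gene could be named, besides Krt19, Epcam, Alb and Ptprc. Read depth differed between libraries, and intervals cover counting error only.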

Additional observations from a re-analysis of the deposited data

Results flagged for a closer look

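In males, the secretin difference in dnTGFB minus that in WT passed the test of the difference itself for 6 members, against 8.1% of genes called higher. On the log2 scale it was 1.98 for Clec4f, 1.40 for Vsig4, 1.95 for Timd4, 2.23 for Cd5l, 1.53 for C1qa and 1.06 for C1qc (edgeR adjusted p = 0.00577, 0.0315, 0.0155, 0.00602, 0.00346 and 0.0248 in the same order of genes). The dnTGFB and WT groups in it each hold 1 library that stands apart. This difference uses the same dnTGFB libraries as dnTGFB over WT and is not independent of that comparison.

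The log2 fold change of dnTGFB secretin over dnTGFB, male minus female, passed for 6 members, against 2.43% of genes called higher. Of these members 3 were not among those above. It was 2.37 for Timd4, 3.04 for C1qa, 2.61 for C1qb, 2.81 for C1qc, 2.89 for Adgre1 and 3.72 for Fcgr1 (edgeR adjusted p = 0.0423, 0.0230, 0.0230, 0.0230, 0.0351 and 0.0230 in the same order of genes). With library totals in place of TMM 0 of these passed and 1 of 20222 genes was called higher, while the members' median difference was 3.26, against 2.71 with TMM. The female dnTGFB group in it holds libraries 1 and 2, which are rich in heart muscle transcripts and carry Ddx3y. The female dnTGFB secretin group holds libraries 1 and 3, which over all genes were nearest to libraries of other groups. No fit of this difference left any of these libraries out.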

How the results depend on the processing

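Of 700 log2 fold changes of members recomputed in males, 609 kept their side of the threshold, 9 of them uncalled values that changed sign, 55 lost and 36 gained a call, and 0 called values changed sign. The share of all genes called moved with the setting too. In male dnTGFB over WT, members called higher numbered 1 without both libraries that stand apart (22.3% of genes), and those called lower 0 in the fit of 6 libraries (0.0%). In WT secretin over WT the 2 higher members became 1 with library totals (3.48% of genes) and 1 without a filter (1.35%). They became 4 with DESeq2 (4.29%), 5 in the fit of 6 libraries (13.3%) and 6 (19.9%) without the libraries that stand apart. In dnTGFB secretin over dnTGFB 5 were higher in the fit of 6 libraries (1.71%). In dnTGFB secretin over WT secretin DESeq2 called 2 higher (5.71% of genes). Both the fit of 6 libraries and that without the libraries that stand apart called 3 higher and 4 lower (5230 and 5377 of 17932 genes in the fit of 6 libraries). Male minus female, dnTGFB over WT had 1 lower without a filter, where the share of all genes is not given here, and 1 with DESeq2. WT secretin over WT had 2 higher with DESeq2, and dnTGFB secretin over dnTGFB had 0 with library totals, where 1 of 20222 genes was called and the members' median was 3.26, against 2.71 with TMM. The cause was not tested.

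Leaving out 1 library gave, in males, 0 to 1 higher and 5 to 9 lower members in dnTGFB over WT, 1 higher in WT secretin over WT, 9 to 10 in dnTGFB secretin over dnTGFB, 0 in dnTGFB secretin over WT secretin and 3 to 8 in the interaction. In females it gave 0 to 3 lower in WT secretin over WT, and 0 to 3 higher in dnTGFB secretin over WT secretin and in the interaction. The share of all genes called changed between these fits too, so these counts alone do not set the members apart. Replicate numbers did not pair the samples: same-numbered libraries correlated at -0.284 to 0.327 in males and -0.927 to 0.931 in females. With a replicate block, 1 member was called higher in male WT secretin over WT, against 2.27% of genes, and 5 in the male interaction, against 5.57%. Male dnTGFB library 3, with 1429218 counts, limits the precision of low members such as Timd4.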
